A study of Homo sapiens with 41 samples.

Results

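The KEAP1-NRF2 antioxidant pathway was followed through 9 genes: NFE2L2, which encodes the transcription factor NRF2, its inhibitor KEAP1, and the target genes HMOX1, NQO1, GCLC, GCLM, TXNRD1, SRXN1 and OSGIN1. They were found by symbol among the 58735 Ensembl genes of the count files, of which 58207 carried a symbol, and all 9 passed the filter on low counts in each fit. The study sequenced RNA of 2 human cell lines to examine ATF4, the main transcriptional effector of the integrated stress response. LX-2 is an immortalised hepatic stellate cell line and HMLE an immortalised mammary epithelial line. Both lines expressed either shCtrl, a control hairpin, or shATF4, a hairpin that targets ATF4, of which the labels name 1. LX-2 received DMSO (vehicle), TGFbeta (a fibrogenic cytokine), Tg (read here as thapsigargin, which blocks calcium uptake into the endoplasmic reticulum) or AA_Dep, taken to mean amino acid deprivation. HMLE received DMSO, Tg or AA_Dep, or overexpressed the transcription factor Twist (Twist_OE). Line, hairpin and condition made 16 groups of 2 samples, and no dose or duration is given in the labels.

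NRF2 is made continuously and is held low by KEAP1, an adaptor that presents it to the CUL3 ubiquitin ligase for degradation. Oxidants and electrophiles modify cysteines of KEAP1, after which NRF2 accumulates, pairs with small MAF proteins in the nucleus and binds antioxidant response elements (ARE) near its targets. Most of its regulation is therefore at the protein level, which these RNA data do not measure. The targets make glutathione (GCLC and GCLM, the catalytic and modifier subunits of glutamate-cysteine ligase), reduce thioredoxin and peroxiredoxins (TXNRD1 and SRXN1), degrade heme (HMOX1), reduce quinones (NQO1) or restrain growth under oxidative stress (OSGIN1). HMOX1 is also repressed by BACH1, and several of these genes are known to respond to other stress factors, ATF4 among them.

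The LX-2 libraries held 14551191 to 18776430 counts and the HMLE libraries 15956909 to 23243132. In 8 of 8 pairs of line and condition, all shATF4 libraries had less ATF4 than all shCtrl libraries: LX-2 held 226 to 785 CPM (counts scaled to the library total) with shCtrl and 120 to 240 CPM with shATF4, and HMLE 285 to 955 CPM and 101 to 159 CPM. In the DMSO libraries, LX-2 had all 7 stellate and fibroblast markers at 1 CPM or more (summed level 5519 to 7688 CPM) and none of the 7 mammary epithelial markers. HMLE had all 7 mammary epithelial markers (5471 to 6742 CPM) and 4 of the 7 stellate and fibroblast markers (29.5 to 36.7 CPM). Hepatocyte and endothelial markers averaged under 1 CPM each in both lines. Of 3 macrophage markers 1, PTPRC, reached 1 CPM in LX-2 (summed level 0.854 to 2.01 CPM) and 0 in HMLE. The files of both HMLE shATF4 AA_Dep samples hold identical values and count as 1 library, so 31 libraries were analysed. LX-2 shCtrl Tg replicate 2 stood apart: it detected 15840 genes, where the remaining LX-2 libraries detected 22912 to 24255, and its log2 CPM correlated with its replicate at r = 0.89, where each of the remaining LX-2 pairs reached at least 0.99. LX-2 comparisons that use its group are given with and without this library. Without it the group has 1 library, which the fit assumes to vary like the others, so these values are given as sizes only. All other LX-2 results come from a fit without that library. The reason is the estimated spread between replicates (biological coefficient of variation), 29.5% with it against 9.21%. The labels do not say whether replicates are separate cultures, so p-values measure the spread between these samples, which may be technical.

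RefSeq promoters (GRCh38.p14, from 250 bases before to 50 after the start) were at hand for 8 of the 9 genes. They were searched on both strands for the ARE core TGACNNNGC, the letters NRF2 is known to bind, and for TGATGNAA, a core bound by ATF4 with C/EBP partners. The ARE core was present in 3 of the 8, KEAP1, GCLM and TXNRD1, and in 13.3% of 35116 promoter windows of the same length. The ATF4 core was in none of the 8 and in 3.62% of all windows. The 120 bases before the start of those 3 genes are shown because they carry the matches, which are in capitals; a match on the opposite strand appears as its reverse complement.
KEAP1, chr19:10502772-10502891, minus strand: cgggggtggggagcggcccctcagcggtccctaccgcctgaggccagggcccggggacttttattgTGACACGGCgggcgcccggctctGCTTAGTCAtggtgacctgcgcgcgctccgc
GCLM, chr1:93909431-93909550, minus strand: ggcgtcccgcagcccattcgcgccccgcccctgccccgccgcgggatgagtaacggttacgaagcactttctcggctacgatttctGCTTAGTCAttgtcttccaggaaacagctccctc
TXNRD1, chr12:104286912-104287031, plus strand: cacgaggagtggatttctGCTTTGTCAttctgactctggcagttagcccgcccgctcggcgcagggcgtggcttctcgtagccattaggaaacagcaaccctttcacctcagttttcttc
KEAP1 has a pair of matches, 54 to 46 and 31 to 23 bases before the start, and the second has the same 9 letters as the GCLM match at 34 to 26 bases. The TXNRD1 match lies 102 to 94 bases before the start. No match says only that these letters are not in the window searched. In RefSeq, NQO1, GCLC and TXNRD1 have antisense genes and OSGIN1 overlaps NECAB2; whether the counting used strand is not given in the sources used here, and without it reads of overlapping genes cannot be told apart.

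The resting levels of the pathway differed between the lines. In shCtrl cells in DMSO, 8 of the 9 genes passed the test, 1 higher and 7 lower in LX-2 than in HMLE, against 70.4% of all genes called in this comparison (35.9% higher, 34.5% lower). Their median log2 difference was -1.0, against 0.07 over all genes tested. HMOX1, the heme oxygenase that yields biliverdin, iron and carbon monoxide, was the one higher in LX-2: 31.0 and 32.4 CPM against 6.0 and 6.26 CPM in HMLE, a log2 difference of 2.18 ± 0.13 (SE; edgeR adjusted p = 6.3e-14). GCLC showed the opposite order, with 31.8 and 31.5 CPM in LX-2 against 150 and 152 CPM in HMLE (-2.45 ± 0.08). NQO1 was at 45.4 and 50.6 CPM against 206 and 200 CPM (-2.27 ± 0.08), and NFE2L2 itself at 59.3 and 57.5 CPM against 99.8 and 104 CPM (-1.0 ± 0.08). In none of these genes did the libraries of the lines overlap, which was not counted over all genes. OSGIN1, SRXN1, GCLM and TXNRD1 were lower in LX-2 by 2.56, 1.61, 0.97 and 0.82 on the log2 scale. KEAP1 did not pass, with 103 and 113 CPM in LX-2 and 87.8 and 90.5 CPM in HMLE. With the library that stands apart in the fit, 7 of the 9 passed, TXNRD1 being lost (51.5% of all genes called). These are bulk RNA levels, in which fewer cells that use a gene and less RNA per cell cannot be told apart. Line also cannot be told apart from any other difference between the cultures.

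Of 42 other genes of the pathway, 12 were higher and 27 lower in LX-2, against 35.9% of all genes called higher and 34.5% lower. The glutathione, thioredoxin and NADPH supply genes stood 1 higher and 9 lower of 10; SLC7A11, the cystine importer for glutathione synthesis, averaged 18.1 CPM in LX-2 and 148 CPM in HMLE (-3.22 ± 0.16). PIR, an iron-binding nuclear protein and a known NRF2 target, was lower by 5.24 ± 0.13. The iron and heme genes were 2 higher and 3 lower, with ferritin light chain FTL higher in LX-2 by 1.24 ± 0.08. SQSTM1, the autophagy receptor that competes for KEAP1, was higher by 1.07 ± 0.08.

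**Figure D1:**
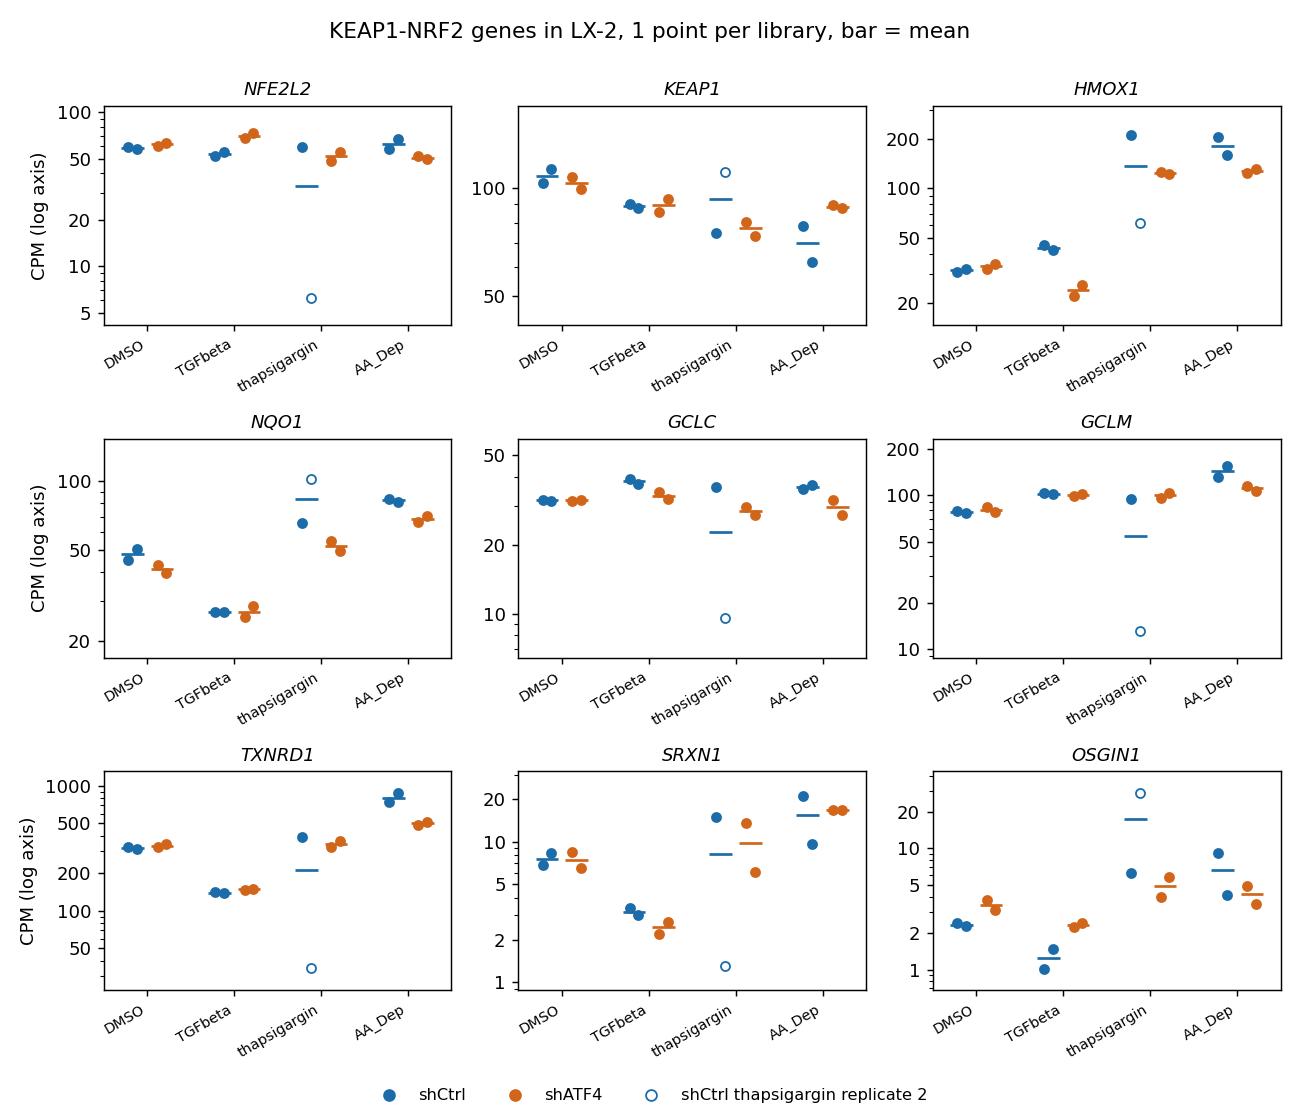
Levels of the 9 genes in LX-2, 1 panel per gene, in CPM on a log axis; each point is 1 library, bars are group means, blue is shCtrl and orange shATF4. HMOX1 is high in Tg and AA_Dep, and in most panels 1 shCtrl Tg point lies far from its replicate, as with TXNRD1 at 389 and 34.7 CPM.

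In LX-2 shCtrl cells, TGFbeta split the targets. Compared with DMSO, 3 of the 9 genes rose and 3 fell, against 22.1% of all genes called (11.1% higher, 11.0% lower), and the median log2 change of the 9 was -0.15 against -3.4e-06 over all genes. TXNRD1, the cytosolic thioredoxin reductase, had 325 and 312 CPM in DMSO and 142 and 138 CPM with TGFbeta, a fall of 1.06 ± 0.08 on the log2 scale (edgeR adjusted p = 1.2e-07). NQO1 fell from 45.4 and 50.6 to 26.9 and 26.7 CPM (-0.71 ± 0.10), and SRXN1, which restores overoxidised peroxiredoxins, from 6.78 and 8.27 to 3.37 and 2.98 CPM (-1.12 ± 0.38, adjusted p = 0.045). Both libraries of each group lay apart from both of the other for all 3, which was not counted over all genes. Both subunits of glutamate-cysteine ligase went the other way: GCLC rose from 31.8 and 31.5 to 39.5 and 37.5 CPM (0.41 ± 0.10) and GCLM from 79.4 and 77.2 to 103 and 102 CPM (0.52 ± 0.09). HMOX1 rose from 31.0 and 32.4 to 45.0 and 42.3 CPM (0.59 ± 0.12, adjusted p = 0.0018). NFE2L2, with 51.7 and 55.2 CPM, and KEAP1, with 90.2 and 88.0 CPM, did not pass the test, nor did OSGIN1, with 1.01 and 1.49 CPM. These values come from the fit of 15 LX-2 libraries; with the library that stands apart, 0 of the 9 passed and 3.15% of all genes were called (2043 genes at an unadjusted p under 0.05). SRXN1 also lost its call without any one of the 4 libraries compared, and GCLC without DMSO replicate 2 or TGFbeta replicate 1.

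Among the 40 other pathway genes tested, 6 rose and 14 fell with TGFbeta, against 11.1% of all genes called higher and 11.0% lower. Of the iron and heme genes none rose and 4 of 6 fell, with the heme transporter SLC48A1 down by 1.24 ± 0.12 on the log2 scale. SQSTM1 fell by 0.43 ± 0.10 and NFE2L3, a paralogue of NFE2L2, by 0.72 ± 0.08, while SLC7A11 rose by 0.61 ± 0.19. Of 14 detoxification and export genes 2 rose and 6 fell, the exporter ABCC3 by 0.79 ± 0.17. With the library that stands apart in the fit 1 of the 40 passed, and without DMSO replicate 2 the calls of SQSTM1, SLC7A11 and ABCC3 were lost, those of SQSTM1 and SLC7A11 also without TGFbeta replicate 2 and that of SLC7A11 without TGFbeta replicate 1.

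Tg raised HMOX1 in both LX-2 libraries. It was at 211 and 61.9 CPM in the Tg libraries against 31.0 and 32.4 CPM in DMSO, above both controls in each. Its log2 rise was 2.26 ± 0.25 (edgeR adjusted p = 2.0e-04) with both libraries. Without replicate 2, which stands apart, it was 2.64 ± 0.13 from 1 Tg library. NQO1, with 65.7 and 102 CPM, rose by 1.31 ± 0.36 with it and 0.35 ± 0.12 without it. OSGIN1, with 6.27 and 28.9 CPM against 2.40 and 2.27 CPM, rose by 3.58 ± 0.80 and 1.32 ± 0.39. These 3 genes passed with both libraries, while the sizes for NQO1 and OSGIN1 came largely from replicate 2. Calls over all genes were 34.4% with both libraries (19.3% higher, 15.1% lower). The NQO1 and OSGIN1 calls were lost without either DMSO library. A fit without Tg replicate 1 leaves only the library that stands apart in the group. Its calls are therefore not read as results on these genes.

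The remaining genes disagreed between the Tg replicates. NFE2L2 was at 59.8 and 6.23 CPM, GCLC at 36.1 and 9.58 CPM, GCLM at 95.0 and 13.2 CPM, and TXNRD1 at 389 and 34.7 CPM, replicate 2 being the lower in each. KEAP1, with 74.8 and 111 CPM, was the lower in replicate 1. SRXN1, with 15.05 and 1.31 CPM against 6.78 and 8.27 CPM in DMSO, lay on either side of its controls. None of these 6 passed with both libraries. KEAP1 had a log2 change of -0.64 ± 0.13 without replicate 2, from 1 Tg library. With both libraries it had the opposite sign (0.28), without a call. That sign depends on the scaling: the mean of both Tg libraries was 93.0 CPM against 108.2 CPM in DMSO, and the TMM factors that scale the fit ran from 0.587 to 1.12 with replicate 2 and from 0.912 to 1.07 without it. Of the other pathway genes 13 rose and 9 fell with both libraries, against 19.3% of all genes called higher and 15.1% lower. SQSTM1 was at 534 and 221 CPM against 210 and 238 CPM in DMSO. SLC7A11 was at 114 and 15.8 CPM against 22.1 and 14.2 CPM, so that replicate 2 overlapped DMSO in both genes.

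AA_Dep raised most of the targets in LX-2. From DMSO, 6 of the 9 genes rose and 1 fell, against 45.6% of all genes called (22.8% higher, 22.7% lower); their median log2 change was 0.86 against 0.02 over all genes. HMOX1 rose most, to 205 and 159 CPM from 31.0 and 32.4 CPM, by 2.50 ± 0.12 on the log2 scale (5.66-fold, edgeR adjusted p = 1.7e-10). TXNRD1 rose to 742 and 870 CPM from 325 and 312 CPM (1.32 ± 0.08), and GCLM to 132 and 156 CPM from 79.4 and 77.2 CPM (0.86 ± 0.09). NQO1 rose to 83.8 and 80.9 CPM from 45.4 and 50.6 CPM (0.76 ± 0.10). For all 4 every AA_Dep library exceeded every DMSO library, an order not counted over all genes. OSGIN1 reached 9.16 and 4.10 CPM (1.49 ± 0.33) and SRXN1 21.1 and 9.70 CPM (1.02 ± 0.33), above both DMSO libraries but with replicates far apart. SRXN1 lost its call without AA_Dep replicate 1 or DMSO replicate 1. KEAP1 fell to 78.5 and 62.0 CPM from 103 and 113 CPM (-0.64 ± 0.11). NFE2L2, at 57.5 and 66.8 CPM against 59.3 and 57.5 CPM, did not pass, nor did GCLC, at 35.7 and 37.0 CPM against 31.8 and 31.5 CPM. With the library that stands apart in the fit, HMOX1 alone passed, with 13.0% of all genes called.

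In the same comparison 19 of 40 other pathway genes rose and 9 fell, against 22.8% of all genes called higher and 22.7% lower. Partners and regulators of NRF2 stood at 7 higher and 1 lower of 11: the small MAF protein MAFF rose by 2.41 ± 0.13, SQSTM1 by 2.08 ± 0.10 (to 962 CPM on average from 224 CPM), and BACH2, a repressor of the same family as BACH1, by 3.30 ± 0.48 from 0.403 to 4.08 CPM. SLC7A11 rose by 2.68 ± 0.19, to 118 from 18.1 CPM. FTH1, the ferritin heavy chain, rose by 0.70 ± 0.09. CBR1, a carbonyl reductase, fell by 1.44 ± 0.11. With the library that stands apart in the fit, 10 of the 40 passed, the genes named here among them.

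With shATF4 in place of shCtrl, 6 LX-2 genes were lower under AA_Dep, and none of the 9 passed in DMSO. In DMSO 0 of the 9 genes passed the edgeR test, against 11.6% of all genes called and 4707 genes at an unadjusted p under 0.05; 0 of the 9 passed with the DESeq2 Wald test as well, and 0 with edgeR and the library that stands apart (0.242% of all genes called, 1158 at an unadjusted p under 0.05). HMOX1 had 32.4 and 34.8 CPM with shATF4 against 31.0 and 32.4 CPM, and TXNRD1 323 and 341 CPM against 325 and 312 CPM. In AA_Dep 6 of the 9 were lower with shATF4 and none higher, against 9.91% of all genes called (3.87% higher, 6.04% lower), with a median of -0.38 against -0.01 over all genes. TXNRD1 had 489 and 512 CPM against 742 and 870 CPM with shCtrl (-0.76 ± 0.08, edgeR adjusted p = 2.4e-05). HMOX1 had 123 and 131 CPM against 205 and 159 CPM (-0.59 ± 0.11), and GCLM 115 and 107 CPM against 132 and 156 CPM (-0.45 ± 0.09). The shATF4 libraries were below the shCtrl libraries in each of these, an order not counted over all genes. GCLC, NFE2L2 and NQO1 were lower by 0.38, 0.37 and 0.35 on the log2 scale, and these 3 calls were lost without either shATF4 library, those of GCLC and NFE2L2 also without shCtrl replicate 2, and that of GCLC with no count filter. Without shATF4 AA_Dep replicate 1 the HMOX1 call was lost as well, and GCLM without replicate 2; with the library that stands apart in the fit, 0 of the 9 passed the edgeR test (0.0900% of all genes called, 932 genes at an unadjusted p under 0.05). In spite of the lower values, HMOX1 and TXNRD1 with shATF4 in AA_Dep stayed above their DMSO levels in both libraries.

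The responses themselves were then compared between hairpins. The AA_Dep response was smaller with shATF4 for TXNRD1 by 0.81 ± 0.11 on the log2 scale, for HMOX1 by 0.66 ± 0.16 and for GCLM by 0.48 ± 0.13, 3 of the 9, against 10.6% of all genes called. The GCLM call was lost without any one of the libraries compared other than those of shCtrl AA_Dep. The HMOX1 call was lost without shATF4 AA_Dep replicate 1, shATF4 DMSO replicate 2 or shCtrl DMSO replicate 1. HMOX1 had 22.2 and 26.0 CPM with shATF4 and TGFbeta against 45.0 and 42.3 CPM with shCtrl. The former lie below the shATF4 DMSO libraries, a difference that was not tested. HMOX1 was lower by 0.87 ± 0.12 with shATF4 in TGFbeta, and the difference in response was -0.94 ± 0.17 (edgeR adjusted p = 0.011), 1 of the 9 against 0.987% of all genes. That second call was lost without any 1 of 4 libraries (DMSO replicate 1 or TGFbeta replicate 1 of shCtrl, DMSO replicate 2 or TGFbeta replicate 1 of shATF4). NFE2L2 was higher with shATF4 in TGFbeta, at 67.5 and 73.1 against 51.7 and 55.2 CPM (0.38 ± 0.10), and with HMOX1 it made 2 of the 9 called against 21.7% of all genes (10.9% higher, 10.7% lower). Its call was lost without shATF4 replicate 2 or shCtrl replicate 1. With the library that stands apart in the fit, 0 of the 9 passed by hairpin in TGFbeta (1.29% of all genes called, 1968 genes at an unadjusted p under 0.05). In that fit 0 of the 9 responses to TGFbeta or AA_Dep differed between hairpins (0% and 0.0675% of all genes called, 353 and 948 genes at an unadjusted p under 0.05); DESeq2 was not run on this set.

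Under Tg the hairpins could hardly be compared in LX-2. HMOX1 had 125 and 122 CPM with shATF4 against 211 and 61.9 CPM with shCtrl, so the shCtrl replicates lay on either side. None of the 9 passed the edgeR test with both libraries, against 0.231% of all genes called and 5735 genes at an unadjusted p under 0.05. The DESeq2 Wald test called 2 of the 9, and far more of all genes than edgeR as well, as counted at the end. Without replicate 2, HMOX1 was lower with shATF4 by 0.75 ± 0.13 (adjusted p = 0.0030) with 5.20% of all genes called, and it was also the only one of the 9 whose response to Tg differed between hairpins (6.13% of all genes called). With both libraries 0 of the 9 responses differed in edgeR, against 0.270% of all genes called and 3018 genes at an unadjusted p under 0.05. In the DESeq2 Wald test 1 did, again with far more of all genes called. Without replicate 1 the library that stands apart is alone in its group, so calls from those runs are not read as results on these genes.

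Other pathway genes in LX-2 moved in both directions. With shATF4, MAFF and SQSTM1 were higher in DMSO (by 0.86 ± 0.13 and 0.72 ± 0.10) and in TGFbeta (by 1.17 ± 0.13 and 0.80 ± 0.10), and lower in AA_Dep (by 0.52 ± 0.12 and 0.51 ± 0.10). FTL was higher in DMSO by 0.60 ± 0.09 and in TGFbeta by 0.64 ± 0.09. SLC7A11 was lower in TGFbeta by 1.15 ± 0.20 and in AA_Dep by 2.27 ± 0.18, where it averaged 25.8 CPM against 118 CPM. TRIM16L was lower by 0.88 ± 0.14 in DMSO and 1.68 ± 0.15 in TGFbeta. Counts over the 40 genes were 6 higher and 4 lower in DMSO, 8 and 7 in TGFbeta, and 1 and 9 in AA_Dep, where 11.6%, 21.7% and 9.91% of all genes were called in either direction; with the library that stands apart, 0, 1 and 0 of them passed. In Tg, where that library is used, 0 of the 40 passed the edgeR test (0.231% of all genes called). The DESeq2 Wald test called 13 of them, and far more of all genes than edgeR as well. The AA_Dep calls of SQSTM1 and MAFF were lost without shATF4 replicate 1, and that of MAFF also without shATF4 replicate 2.

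**Figure D2:**
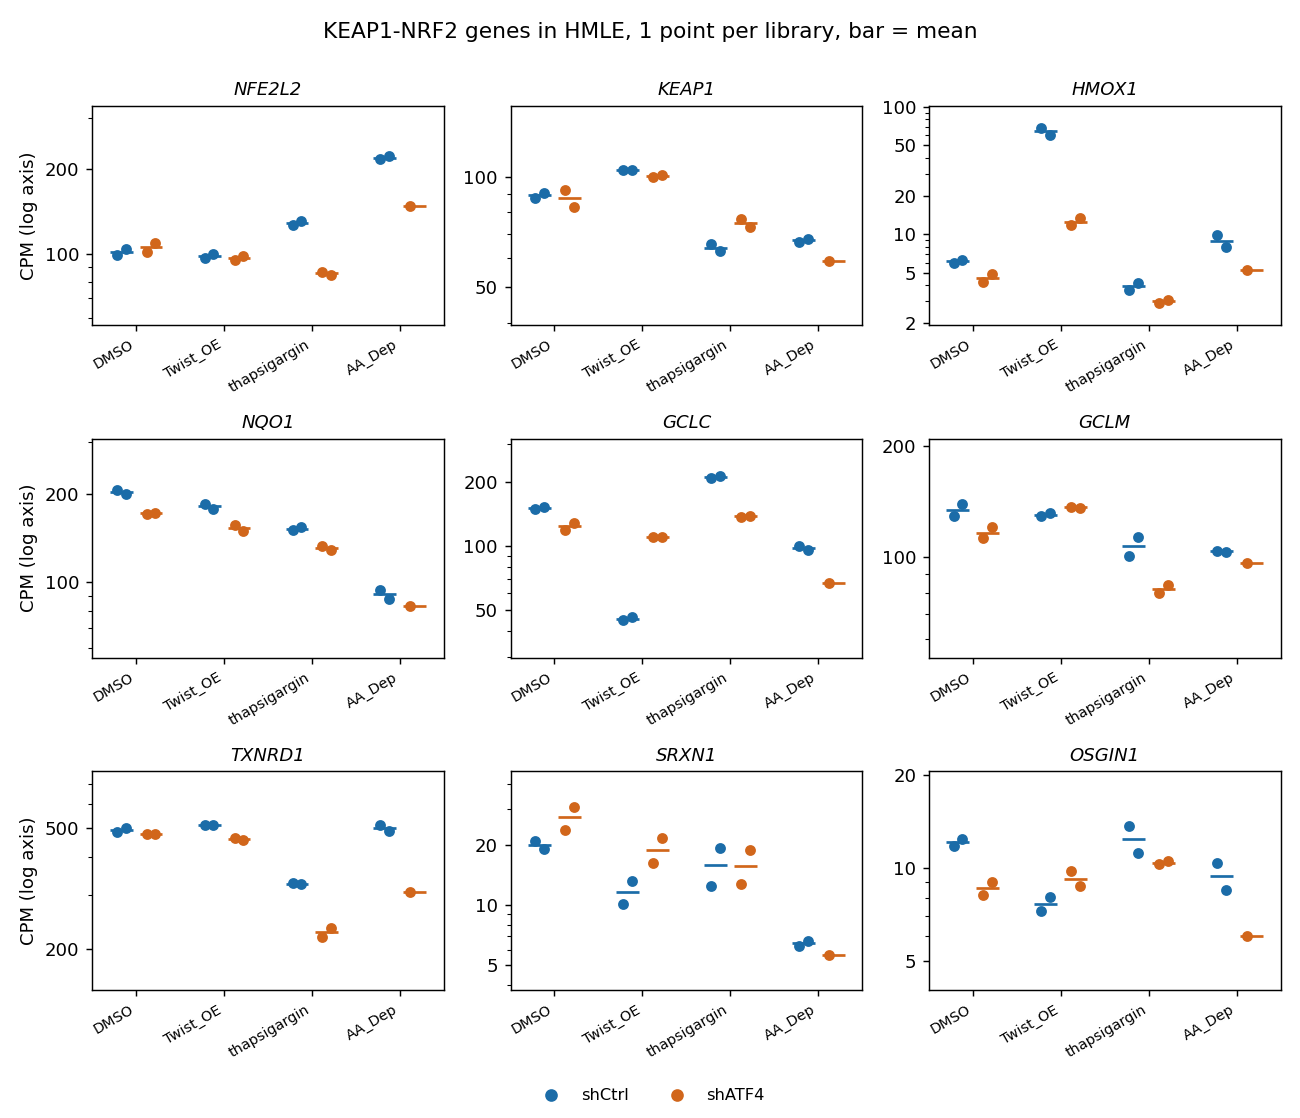
Levels of the 9 genes in HMLE, drawn as for LX-2 (CPM, log axis, 1 point per library, bars are means, blue shCtrl, orange shATF4); shATF4 AA_Dep has 1 library. HMOX1 is highest with shCtrl and Twist_OE, at 67.7 and 60.6 CPM, where GCLC is lowest, at 44.9 and 46.2 CPM.

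In HMLE, Twist_OE gave the widest change of a single target. HMOX1 was at 67.7 and 60.6 CPM with Twist_OE against 6.0 and 6.26 CPM in DMSO, a log2 rise of 3.40 ± 0.12 (10.6-fold, edgeR adjusted p = 6.0e-15). GCLC, the catalytic subunit of glutathione synthesis, fell from 150 and 152 to 44.9 and 46.2 CPM (-1.72 ± 0.05, 3.29-fold), while its partner GCLM was at 129 and 131 CPM against 129 and 140 CPM and did not pass. SRXN1 fell from 21.0 and 19.1 to 10.2 and 13.2 CPM (-0.77 ± 0.20) and OSGIN1 from 11.8 and 12.4 to 7.23 and 8.01 CPM (-0.65 ± 0.13). KEAP1 rose by 0.24 ± 0.06 and NQO1 fell by 0.15 ± 0.05, both small; the NQO1 call was lost with the DESeq2 Wald test and without DMSO replicate 1 or Twist_OE replicate 2. NFE2L2, at 96.8 and 100 CPM, and TXNRD1, at 512 and 511 CPM, did not pass. In all, 2 of the 9 rose and 4 fell, against 57.2% of all genes called (28.3% higher, 28.9% lower), and their median log2 change was -0.04 against 0.00 over all genes.

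The iron and heme genes gave 3 higher and 2 lower of 6 with Twist_OE. FTH1 rose by 1.04 ± 0.08 and FTL by 0.75 ± 0.06, the ferritin subunits that store iron, and BLVRA, which converts the biliverdin made by heme oxygenase, by 0.71 ± 0.08. Glutathione, thioredoxin and NADPH supply genes were 1 higher and 8 lower of 10, with glutathione reductase GSR down by 0.99 ± 0.06 and PGD by 0.77 ± 0.05. SQSTM1 rose by 1.22 ± 0.05 and ABCC3 by 1.79 ± 0.09. Over all 41 genes tested 16 rose and 17 fell, against 28.3% of all genes called higher and 28.9% lower.

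Tg lowered most of the targets in HMLE by small amounts. From DMSO, 2 of the 9 rose and 5 fell, against 36.8% of all genes called (18.6% higher, 18.2% lower); the median log2 change was -0.29 against 0 over all genes. NFE2L2 rose from 99.8 and 104 to 127 and 131 CPM (0.39 ± 0.05) and GCLC from 150 and 152 to 208 and 212 CPM (0.52 ± 0.05). TXNRD1 fell from 483 and 500 to 329 and 326 CPM (-0.54 ± 0.05, edgeR adjusted p = 1.5e-08), and HMOX1 from 6.0 and 6.26 to 3.68 and 4.19 CPM (-0.59 ± 0.15). NQO1, KEAP1 and GCLM fell by 0.37, 0.43 and 0.28 on the log2 scale. The Tg and DMSO libraries did not overlap in any of these 7 genes, which the test on the same libraries picked. How many of all genes lack such overlap was not counted. SRXN1, at 12.5 and 19.2 CPM, and OSGIN1, at 13.7 and 11.2 CPM, did not pass. Of 41 other genes 8 rose and 9 fell: SLC7A11 rose by 1.19 ± 0.08, MAFF by 1.24 ± 0.08, the NRF2 paralogue NFE2L1 by 0.62 ± 0.05 and UGDH, which makes the precursor for glucuronidation, by 1.24 ± 0.06, and the peroxiredoxin PRDX1 fell by 0.35 ± 0.04.

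Under AA_Dep in HMLE, NFE2L2 rose and most targets fell. NFE2L2 had 216 and 221 CPM against 99.8 and 104 CPM in DMSO, a log2 rise of 0.98 ± 0.05 (1.98-fold, edgeR adjusted p = 3.8e-12), its highest level in either line. SRXN1 fell from 21.0 and 19.1 to 6.28 and 6.66 CPM (-1.74 ± 0.22) and NQO1 from 206 and 200 to 94.4 and 88.1 CPM (-1.27 ± 0.05). GCLC fell to 100 and 95.3 CPM (-0.74 ± 0.05) and GCLM to 104 and 103 CPM (-0.49 ± 0.06). KEAP1 fell to 66.5 and 67.8 CPM (-0.52 ± 0.06) and OSGIN1 to 10.3 and 8.49 CPM (-0.47 ± 0.13), the latter call lost with the DESeq2 Wald test or without AA_Dep replicate 2. HMOX1 rose to 9.89 and 7.96 CPM (0.43 ± 0.14), a call lost without DMSO replicate 1 or AA_Dep replicate 1. TXNRD1, at 512 and 489 CPM against 483 and 500 CPM, did not pass. In all 2 of the 9 rose and 6 fell, against 61.7% of all genes called (29.1% higher, 32.6% lower); the median log2 change was -0.49 against 0.00.

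Among the other pathway genes of HMLE, more fell than rose in AA_Dep: over the 41 genes 11 rose and 26 fell, against 29.1% of all genes called higher and 32.6% lower. Of the partners and regulators 7 rose and 3 fell, with MAFF up by 2.45 ± 0.07 and SQSTM1 by 1.79 ± 0.05. Of the glutathione, thioredoxin and NADPH supply genes 9 of 10 fell, including the pentose phosphate enzyme PGD (-1.18 ± 0.05); the one that rose was SLC7A11, by 1.75 ± 0.09. Iron and heme genes were 2 higher and 4 lower, with BLVRA down by 1.66 ± 0.09 and FTL by 0.53 ± 0.06. Detoxification and export genes were 1 higher and 10 lower of 14, with CBR1 down by 1.69 ± 0.07.

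**Figure D3:**
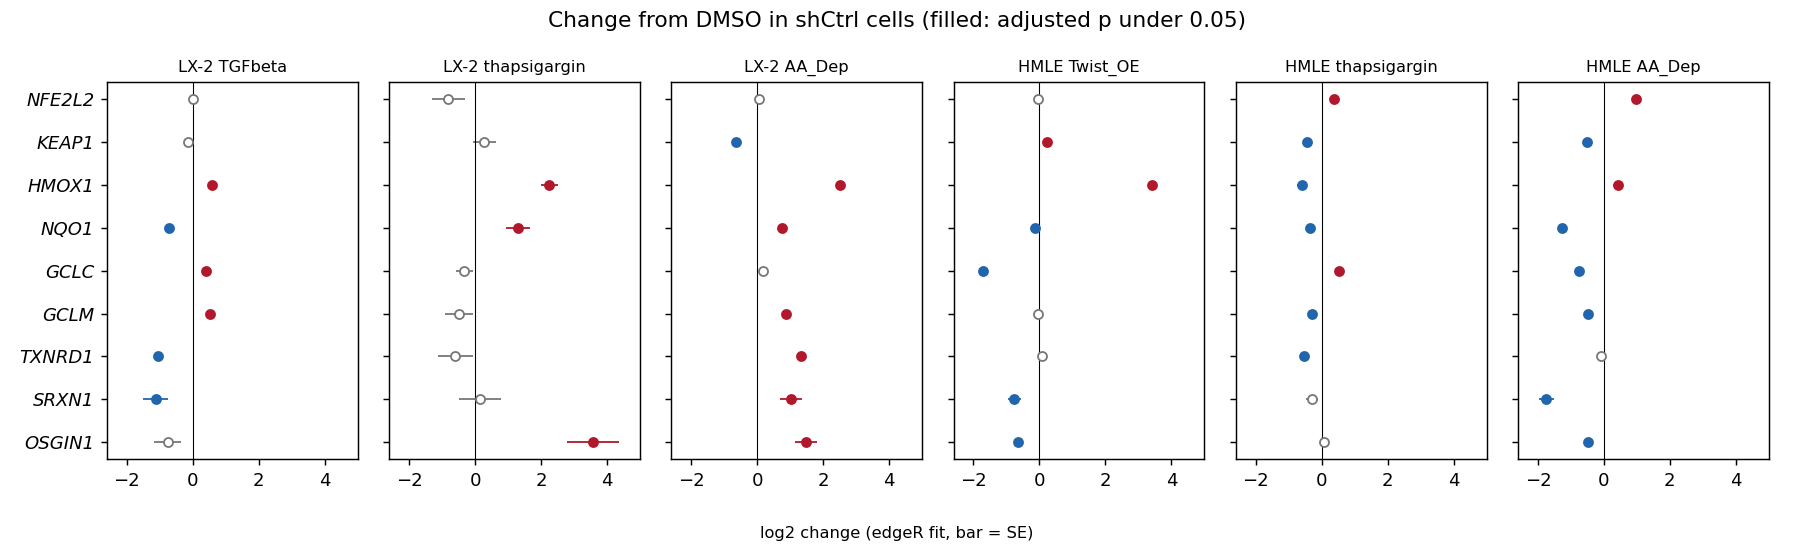
Log2 change from DMSO in shCtrl cells for the 9 genes in the 6 conditions, as points with the SE as bars; filled points passed the edgeR test at an adjusted p under 0.05, red higher and blue lower. LX-2 Tg is fitted with the library that stands apart and has the widest bars; HMOX1 is to the right in LX-2 and, with Twist_OE, in HMLE at 3.40.

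The same labelled conditions gave different responses in the lines. For AA_Dep, the response differed in 8 of the 9 genes, 7 more positive and 1 more negative in LX-2, against 40.3% of all genes called (21.0% higher, 19.3% lower). The difference was 2.74 ± 0.43 for SRXN1, 2.05 ± 0.19 for HMOX1, 2.00 ± 0.11 for NQO1 and 1.94 ± 0.35 for OSGIN1 on the log2 scale, and 1.38 ± 0.10, 1.32 ± 0.11 and 0.89 ± 0.10 for TXNRD1, GCLM and GCLC. NFE2L2 went the other way, by -0.94 ± 0.11, with a rise in HMLE and no call in LX-2. SRXN1, NQO1, GCLM and OSGIN1 rose in LX-2 and fell in HMLE. With the library that stands apart in the fit, SRXN1, HMOX1 and NQO1 alone passed, with 14.5% of all genes called. For Tg, 4 of the 9 differed, against 21.6% of all genes (11.3% higher, 10.3% lower): HMOX1 by 2.77 ± 0.34, NQO1 by 1.52 ± 0.35, OSGIN1 by 3.29 ± 0.77 and GCLC by -0.93 ± 0.30. Without replicate 2, which leaves 1 LX-2 Tg library, these differences were 3.21 ± 0.21, 0.70 ± 0.12, 1.22 ± 0.39 and -0.45 ± 0.12. The GCLC call with both libraries was lost with no count filter, and without any one of the DMSO libraries or the HMLE Tg libraries compared. Dose and duration are not given for either line and cannot be told apart from line.

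The hairpins were then compared within each HMLE condition. In DMSO 4 of the 9 genes were lower with shATF4 and none higher, against 12.8% of all genes called (6.08% higher, 6.72% lower), with a median log2 difference of -0.20 against -0.01 over all genes. The differences were small: GCLC had 119 and 129 CPM against 150 and 152 CPM with shCtrl (-0.27 ± 0.05, edgeR adjusted p = 8.0e-04) and NQO1 171 and 173 CPM against 206 and 200 CPM (-0.23 ± 0.05). OSGIN1 was lower by 0.48 ± 0.13 and GCLM by 0.20 ± 0.06. GCLC alone held its call under each alternative run; the DESeq2 Wald test left GCLC and NQO1. HMOX1, at 4.24 and 4.87 against 6.0 and 6.26 CPM, did not pass.

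In Twist_OE cells the hairpin moved HMOX1 and GCLC furthest. HMOX1 had 11.8 and 13.4 CPM with shATF4 against 67.7 and 60.6 CPM with shCtrl (-2.38 ± 0.11, edgeR adjusted p = 6.5e-13). GCLC had 110 and 110 CPM against 44.9 and 46.2 CPM (1.25 ± 0.05). Both lay between the shCtrl values for Twist_OE and DMSO. SRXN1 was higher with shATF4, at 16.2 and 21.5 against 10.2 and 13.2 CPM (0.66 ± 0.20), a call lost without shATF4 replicate 2 or shCtrl replicate 1. NQO1 and TXNRD1 were lower by 0.28 ± 0.05 and 0.18 ± 0.04. In all 2 of the 9 were higher and 3 lower, against 47.2% of all genes called (23.3% higher, 23.9% lower), with a median of -0.05 against -0.02 over all genes. TWIST1 itself was at 119 and 137 CPM in shCtrl Twist_OE and at 29.9 and 31.2 CPM in shATF4 Twist_OE, against 16.8 and 16.3 CPM in shCtrl DMSO and 14.3 and 9.97 CPM in shATF4 DMSO. The part of this lower TWIST1 level in the differences between hairpins was not tested.

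Iron and supply genes also differed between hairpins in Twist_OE. With shATF4, FTH1 was lower by 0.79 ± 0.08, FTL by 0.75 ± 0.06 and SQSTM1 by 1.02 ± 0.05, and GSR was higher by 0.88 ± 0.06. SLC7A11 was lower by 0.87 ± 0.09. Of 41 genes 11 were higher and 17 lower, against 23.3% of all genes called higher and 23.9% lower. The response to Twist_OE differed between hairpins in 4 of the 9 genes, against 29.7% of all genes: HMOX1 by -1.96 ± 0.18, GCLC by 1.52 ± 0.07, OSGIN1 by 0.72 ± 0.19 and GCLM by 0.24 ± 0.08. The GCLM call was lost with DESeq2's size factors or Wald test and without DMSO replicate 1 or Twist_OE replicate 1 of shATF4, or DMSO replicate 2 or either Twist_OE library of shCtrl.

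Under Tg, NFE2L2, GCLC, GCLM, TXNRD1 and NQO1 were lower with shATF4 in HMLE, and SRXN1, HMOX1 and OSGIN1 did not pass. NFE2L2 had 86.6 and 84.8 CPM against 127 and 131 CPM with shCtrl (-0.61 ± 0.05, edgeR adjusted p = 3.2e-08), below its own DMSO level of 102 and 110 CPM. GCLC had 137 and 138 CPM against 208 and 212 CPM (-0.63 ± 0.05), and TXNRD1 219 and 234 CPM against 329 and 326 CPM (-0.54 ± 0.05). GCLM had 80.1 and 83.8 CPM against 101 and 113 CPM (-0.40 ± 0.06). NQO1 was lower by 0.24 ± 0.05 and KEAP1 higher by 0.21 ± 0.06, so that 1 of the 9 was higher and 5 lower, against 24.3% of all genes called (12.3% higher, 11.9% lower). The KEAP1 call was lost without shATF4 replicate 1 or shCtrl replicate 2. The Tg response was lower with shATF4 for NFE2L2 by 0.67 ± 0.07, TXNRD1 by 0.52 ± 0.06 and GCLC by 0.36 ± 0.07, 3 of the 9 against 4.56% of all genes.

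In AA_Dep, where shATF4 has 1 library that the fit assumes to vary like the other groups, 5 of the 9 were lower with shATF4 and none higher, against 16.9% of all genes called (9.77% higher, 7.09% lower). NFE2L2 had 148 CPM against 216 and 221 CPM (-0.52 ± 0.06, edgeR adjusted p = 4.6e-06), and TXNRD1 308 CPM against 512 and 489 CPM (-0.65 ± 0.06). GCLC had 66.7 CPM against 100 and 95.3 CPM (-0.51 ± 0.07). HMOX1, at 5.26 against 9.89 and 7.96 CPM, was lower by 0.71 ± 0.19, and OSGIN1, at 6.02 against 10.3 and 8.49 CPM, by 0.60 ± 0.19; both calls were lost without shCtrl replicate 1, that of OSGIN1 also with the DESeq2 Wald test. KEAP1, NQO1, GCLM and SRXN1 did not pass. In CPM the single shATF4 library also lay below both shCtrl libraries for them, as with SRXN1 at 5.64 against 6.28 and 6.66 CPM. How many of all genes show that order was not counted. The response differed for NFE2L2 by -0.59 ± 0.08 and TXNRD1 by -0.63 ± 0.07, 2 of the 9 against 5.09% of all genes.

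Of the other pathway genes in HMLE, SLC7A11 was lower with shATF4 in each condition: with a log2 difference of -1.51 ± 0.09 in DMSO, -2.19 ± 0.09 in Tg and -2.75 ± 0.12 in AA_Dep, where it was at 78.1 CPM against 540 CPM. NFE2L1 was lower by 0.37 ± 0.05 in DMSO, 0.71 ± 0.05 in Tg and 0.84 ± 0.07 in AA_Dep. BLVRB, a biliverdin and flavin reductase, was lower by 0.80 ± 0.07 in DMSO and 0.89 ± 0.07 in Tg. NFE2L3 was higher in DMSO by 0.46 ± 0.08, and MAFK in AA_Dep by 0.55 ± 0.06. Counts over 41 genes were 2 higher and 11 lower in DMSO, 6 and 13 in Tg, and 5 and 7 in AA_Dep, where 12.8%, 24.3% and 16.9% of all genes were called in either direction.

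**Figure D4:**
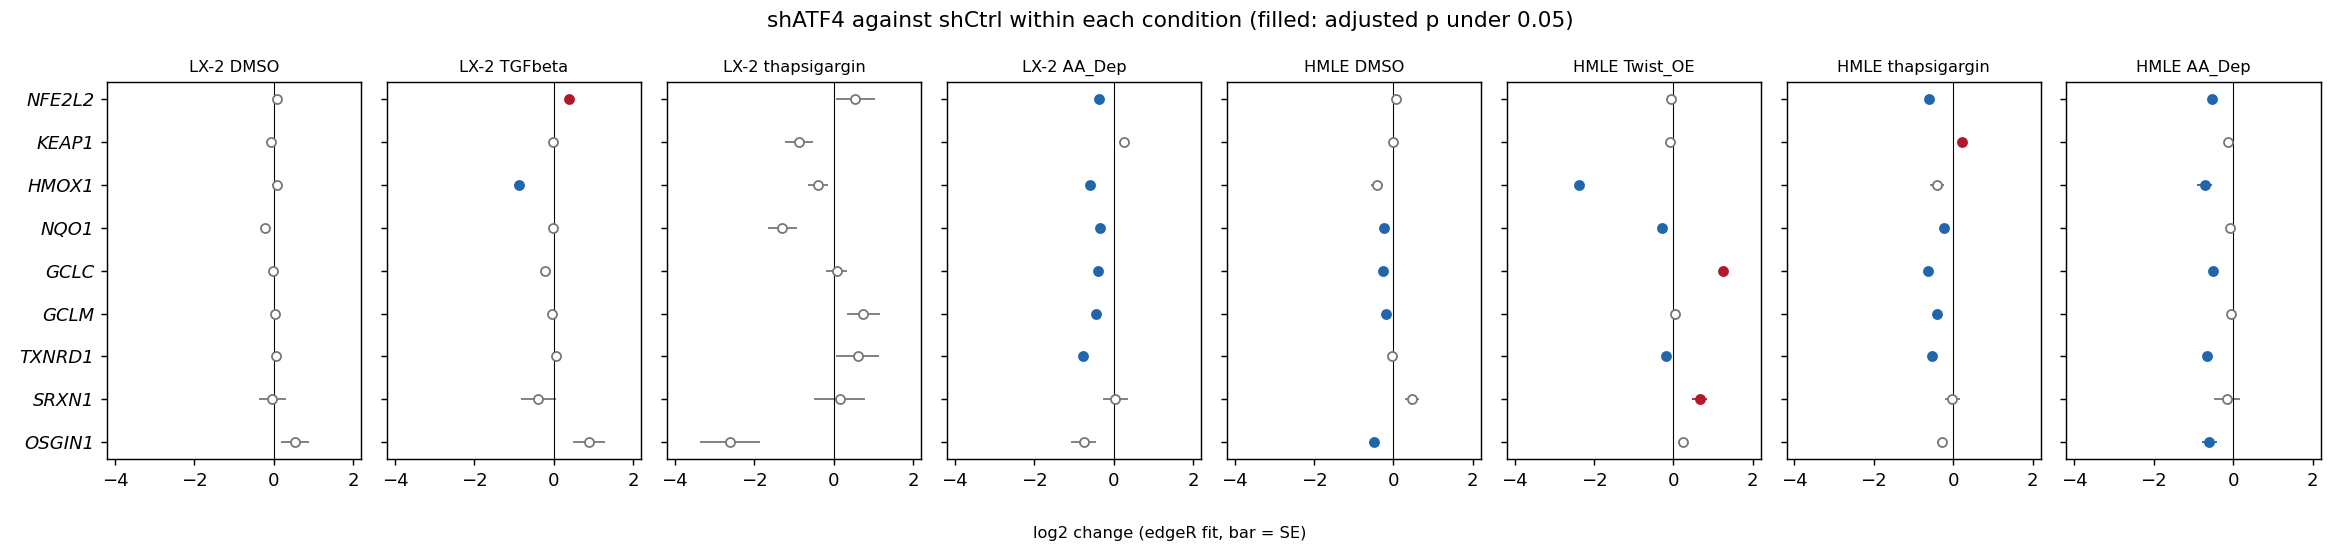
Log2 difference of shATF4 from shCtrl within each line and condition for the 9 genes, as points with the SE as bars; filled points passed the edgeR test at an adjusted p under 0.05, red higher and blue lower. In LX-2 DMSO no point is filled, in LX-2 AA_Dep 6 are, all to the left, and in HMLE Twist_OE HMOX1 (-2.38) and GCLC (1.25) lie furthest out.

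Ordered by mean level, no neighbours among the 8 HMLE groups overlapped for HMOX1 or GCLC, and 1 of 7 did for KEAP1 and for NQO1. For HMOX1 the gap between shATF4 DMSO (lowest 4.24 CPM) and shCtrl Tg (highest 4.19 CPM) was narrow. The shATF4 AA_Dep group has 1 library, and the share of all genes without such overlap was not counted. HMOX1 ran from shCtrl Twist_OE down through shATF4 Twist_OE, shCtrl AA_Dep, shCtrl DMSO, shATF4 AA_Dep, shATF4 DMSO and shCtrl Tg to shATF4 Tg, a ratio of 21.4 from 64.1 to 2.99 CPM. GCLC ran from 210.2 CPM in shCtrl Tg to 45.6 CPM in shCtrl Twist_OE (4.61-fold). In LX-2 without the library that stands apart, TXNRD1 ran from 806 CPM in shCtrl AA_Dep to 139.9 CPM in shCtrl TGFbeta (5.76-fold) and HMOX1 over 8.78-fold, with 2 of 7 neighbours overlapping in each. NFE2L2 itself spanned 1.39-fold over the LX-2 groups, with 3 of 7 neighbours overlapping, and 2.55-fold in HMLE, also with 3 of 7. KEAP1 spanned 1.54-fold in LX-2 and 1.76-fold in HMLE. The other targets spanned 6.89-fold (SRXN1), 5.30-fold (OSGIN1), 3.07-fold (NQO1), 1.84-fold (GCLM) and 1.36-fold (GCLC) in LX-2. The GCLC span was the smallest but near that of NFE2L2, and the difference was not tested. Including the library that stands apart, NFE2L2 spanned 2.13-fold, GCLC 1.69-fold and OSGIN1 14.1-fold. KEAP1 again spanned 1.54-fold, then less than GCLC.

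Across the 16 group means of log2 CPM, with each line's mean subtracted and without the library that stands apart, some targets moved together and others did not. NQO1 correlated with SRXN1 at r = 0.92, with TXNRD1 at 0.78 and with OSGIN1 at 0.75, and at 0.79, 0.46 and 0.74 with that library included. HMOX1 and GCLC were at -0.53 (-0.61 with it). NFE2L2 was at -0.53 with SRXN1, at -0.49 with NQO1 and at -0.48 with KEAP1, and at -0.26, -0.59 and -0.35 with the library; its r with GCLM went from -0.15 to 0.55. These describe 16 points that share libraries, depth and control groups. By the same measure, the genes most like NFE2L2 were RNF103 (0.93), FBXO8 and AP4E1, those most like KEAP1 SFMBT1, HAUS8 and CD320, and those most like HMOX1 MAN1A1 (0.93), HAGLR and SEL1L3. For GCLC they were EPGN, THBD and HTATSF1, for GCLM NIN, CCND1 and LEPR, and for TXNRD1 NEK2 and CDT1 among the 3 nearest. NQO1 and SRXN1 had DDX54 in common, beside SRXN1 and CARD19 for NQO1 and RPL30 and UQCRH for SRXN1, and OSGIN1 had SPRYD3, MRPL10 and PIGX. These neighbours depend on 1 library: with LX-2 shCtrl Tg replicate 2 included, the 3 nearest genes shared 2 with this list for NFE2L2 and GCLC, 1 for KEAP1, NQO1 and GCLM, and 0 for the other 4.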

How the data were processed

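Per the labels' protocols, RNA was sequenced in 32 samples; the 9 ChIP-seq samples were not analysed here. The deposited values are the authors' raw counts per Ensembl gene, whole numbers, 1 file per sample. The submitters' processing notes name cutadapt, Bowtie2, STAR, HOMER, featureCounts and DESeq with builds hg19 and hg38, without versions; which of them served the RNA is not given in the sources used here.

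Levels are CPM over the file total. Tests used edgeR 4.0.16 (limma 3.58.1) in R 4.3.3: filterByExpr, TMM, and the quasi-likelihood F test with all groups of a line (or of both lines) in 1 fit, adjusted by Benjamini-Hochberg over all genes tested at a threshold of 0.05. Between 17772 and 20689 genes were tested. Each SE was derived from the test, as the size of the log2 change divided by the root of its F statistic. The fit was tested on simulated data. Replicate numbers in the labels were not taken to pair the samples, so the main fit used no block. Alternatives were DESeq2's size factors, a Wald test in DESeq2 1.42.0, keeping genes with low counts, a replicate block, adding or leaving out LX-2 shCtrl Tg replicate 2, and leaving out each library.

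The 9 genes, the 42 other pathway genes (partners and regulators; glutathione, thioredoxin and NADPH supply; iron and heme; detoxification and export) and the markers were chosen with earlier results of these data known. Of each pathway list, genes named are among the 3 largest changes past the threshold. AKR1C1, AKR1C2 and AKR1C3, closely related genes, were counted but not named with values. Likeness used genes with a mean of at least 5 CPM and log2(CPM + 1). Precision is limited by 2 libraries per group. Some genes that these rules pick are not reported here.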

Additional observations from a re-analysis of the deposited data

Results flagged for a closer look

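The following differences passed a test of the difference itself (edgeR, adjusted p under 0.05 over all genes). Several were lost under alternative runs. Among them were HMOX1 for TGFbeta (5 of 13 runs), GCLM for LX-2 AA_Dep (7 of 13) and Twist_OE (7 of 12), and GCLC for Tg between lines (7 of 12). With shATF4 in place of shCtrl, the log2 response to TGFbeta in LX-2 differed for HMOX1 (-0.94), and that to AA_Dep for HMOX1 (-0.66), GCLM (-0.48) and TXNRD1 (-0.81). In HMLE the response to Twist_OE differed for HMOX1 (-1.96), GCLC (1.52), GCLM (0.24) and OSGIN1 (0.72), beside the lower TWIST1 level given above. The response to Tg differed for NFE2L2 (-0.67), GCLC (-0.36) and TXNRD1 (-0.52), and that to AA_Dep for NFE2L2 (-0.59) and TXNRD1 (-0.63). These AA_Dep differences in HMLE rest on 1 shATF4 library.

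Between the lines, LX-2 against HMLE with shCtrl, the response to Tg differed for HMOX1 (2.77), NQO1 (1.52), GCLC (-0.93) and OSGIN1 (3.29), all with the LX-2 library that stands apart. The response to AA_Dep differed for NFE2L2 (-0.94), HMOX1 (2.05), NQO1 (2.00), GCLC (0.89), GCLM (1.32), TXNRD1 (1.38), SRXN1 (2.74) and OSGIN1 (1.94). Groups have at most 2 libraries, so single samples far from their group could not be tested.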

How the results depend on the processing

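Of 98 member changes past the threshold, 54 stayed past it under each alternative run, 44 were lost under at least 1, and none changed direction. LX-2 shCtrl Tg replicate 2 mattered most by count. With it in the fit, the 9 genes gave 0 calls in place of 6 for LX-2 TGFbeta, 1 in place of 7 for AA_Dep, and 3 in place of 8 for the AA_Dep response between lines. It also gave 0 in place of 2 for shATF4 in TGFbeta, 0 in place of 6 for shATF4 in AA_Dep, and 0 in place of 1 and 3 for the hairpin differences in response to TGFbeta and AA_Dep; fewer genes passed over all genes as well. For LX-2 Tg by hairpin, the DESeq2 Wald test and no count filter each gave 2 calls in place of 0 (4197 and 3969 genes in all, against 41), and 1 in place of 0 for the difference in response (712 and 1639 genes, against 48); the cause was not tested. In HMLE DMSO the DESeq2 Wald test gave 2 calls for shATF4 in place of 4 (1729 genes against 2295).

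Leaving out 1 library at a time leaves 1 library in a group, so counts of calls from these runs are not given. They moved most for LX-2 Tg, shATF4 in LX-2 Tg, its response difference and the Tg response between lines. They were highest there without Tg replicate 1, and the totals over all genes also ranged widely. The counts also moved for shATF4 in LX-2 TGFbeta and AA_Dep, for their response differences, and for shATF4 in HMLE AA_Dep. For shATF4 in HMLE DMSO each run gave fewer calls than the main fit. The log2 change of KEAP1 in LX-2 Tg was 0.28 with both Tg libraries, against lower mean CPM than in DMSO, -0.64 without replicate 2 and 0.79 without replicate 1. That of HMOX1 in LX-2 Tg with shATF4 was -0.39 with both shCtrl libraries, -0.75 without replicate 2 and 0.16 without replicate 1. Of 70 other pathway changes, 50 stayed past the threshold under each alternative and none changed direction.

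With the replicate number as a block, no member call was lost; HMLE DMSO had 5 calls for shATF4 in place of 4, and the count for LX-2 TGFbeta was again 6. Same-numbered samples did not deviate together in all pairs of groups. In LX-2 r ran from -0.617 to 0.491, with 9 of 28 pairs over 0.1 and 12 under -0.1. In HMLE r ran from -0.127 to 0.430 (median 0.15), with 14 of 21 pairs over 0.1 and 1 under -0.1. The numbers were not taken to pair the samples in either line, though most HMLE pairs leaned the same way. With 2 libraries per group, low genes such as OSGIN1 and SRXN1 in LX-2 carry the widest errors.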
